A study of Mus musculus with 282 samples.

Results

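The mouse genes named Zfp900 to Zfp999 are a numbered block of zinc finger genes, and their RNA was measured in the hypothalamus of 282 male mice fed a high fat diet. The members are all genes in the deposited expression table whose name is Zfp9 followed by 2 digits, which gave 24 of 14079 genes and 54 of 51024 transcripts. GENCODE M21 lists 64 genes with such names, and the other 40 were not analysed here. The mice came from 99 strains of the Hybrid Mouse Diversity Panel, in which 25 were classic inbred strains and 74 were recombinant inbred strains, made by crossing 2 inbred parents and inbreeding the offspring. The recombinant strains comprised 43 BXD (C57BL/6J and DBA/2J parents), 18 AXB/BXA (A/J and C57BL/6J), 6 BXH (C57BL/6J and C3H/HeJ) and 7 CXB strains (a BALB/c and a C57BL/6 parent). All groups shared sex, diet and tissue, and the labels gave no age and no lean or chow-fed comparison group. Each strain had 1 to 3 mice, with 3 in 85 strains.

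Most mammalian zinc finger genes of this kind encode proteins with a row of C2H2 fingers, each of which holds a zinc ion between a pair of cysteines and a pair of histidines and contacts a few bases of DNA. Many carry a KRAB domain, which recruits the cofactor TRIM28 and, through it, the histone methyltransferase SETDB1 and HP1 proteins, and a well known role of such proteins is silencing of retrotransposons. The family grew by tandem duplication, so that its genes often lie in clusters and resemble each other in sequence, and many members occur in rodents only.

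The first C2H2 finger of the longest coding sequence shows how alike neighbouring members can be. It is given below for the 3 members with the largest strain differences and for 2 members of the chromosome 17 cluster, from GENCODE M21 on GRCm38, 5′ to 3′ on the gene's own strand, with the codons of the zinc-binding cysteines and histidines in capitals. Zfp949 lies on the plus strand (chr9:88569270-88569332). The other 4 are on the minus strand, namely Zfp933 (chr4:147826679-147826741), Zfp947 (chr17:22146077-22146139), Zfp942 (chr17:21929032-21929094) and Zfp944 (chr17:22339650-22339712). All 5 lie in the last coding exon of their gene.
Zfp949: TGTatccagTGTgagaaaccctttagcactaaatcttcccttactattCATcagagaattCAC
Zfp933: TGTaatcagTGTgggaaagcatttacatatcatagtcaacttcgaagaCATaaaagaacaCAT
Zfp947: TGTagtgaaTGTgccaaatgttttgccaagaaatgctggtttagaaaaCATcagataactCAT
Zfp942: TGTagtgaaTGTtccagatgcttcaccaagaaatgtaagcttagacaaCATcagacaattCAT
Zfp944: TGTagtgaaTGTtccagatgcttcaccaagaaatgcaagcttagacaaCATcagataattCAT
The fingers of Zfp942 and Zfp944 differed at 2 of 63 bases, and that of Zfp947 differed from that of Zfp944 at 10. Over all 231 pairs of members with a finger of this length the median identity was 55.6%. Of the 23 members with a coding sequence in M21, 22 held at least 1 finger of the pattern searched (cysteines 2 residues apart, then 12 residues, then histidines 3 or 4 residues apart). Zfp945 held the most, with 18, and the median over those 22 was 11. Zfp935 held none in its longest coding sequence, and Zfp939 had no coding sequence in M21.

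Sequence likeness matters for these values because a read that fits several genes can be shared between them. The share of a member's 50-base stretches that occur in another M21 gene had a median of 2.85% and was 0% for Zfp949. It was above 20% for 5 members, at 100% for Zfp935, 39.4% for Zfp963, 37.0% for Zfp932, 23.3% for Zfp931 and 20.05% for Zfp947. For Zfp935 and Zfp963 most of it came from genes annotated over the same exons (Gm49359 and Gm20422), and for Zfp932 from Gm15446. Levels of these 5 members are therefore uncertain where reads could have been split. Only exact matches in annotated transcripts were counted, whereas the authors' alignment allowed mismatches. Reads of the other members can thus be shared more often than these values show. In addition, 5 loci carry a 2nd gene name (Zfp939 with Zfp619, Zfp947 with Gm4944, Zfp952 with Zfp472, Zfp956 with Zfp783 and Zfp963 with Zfp866), and their value is the sum over both.

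Expression was low to moderate and present in every mouse. Levels are FPKM, fragments normalised for transcript length and library size, as scaled between mice by the authors. The median of the members' mean FPKM was 6.06, against 6.24 over the 230 other genes named Zfp and a number, and 9.43 over all genes. Zfp941 had the highest mean, 17.1 ± 2.21 FPKM (SD, n = 282), followed by Zfp956 at 16.1 ± 2.09, Zfp963 at 11.8 ± 1.25, Zfp949 at 11.2 ± 5.09 and Zfp938 at 8.59 ± 0.987. The values of Zfp956 and Zfp963 are those of loci with 2 names. Their own transcripts held 45.3% and 17.6% of the locus's FPKM, and the Zfp963 transcript had a mean of 2.09 FPKM. Zfp959 had the lowest mean level of a member, 1.25 ± 0.370 FPKM. No member was at 0 in any of its 6768 values, where 0.72% of the values of all genes were. Of the members' values 8 lay below 0.5 FPKM, and 17 members exceeded 1 FPKM in all mice, counts that were not made over all genes. The deposited genes all exceed 0 FPKM in at least 100 mice and 1 FPKM in at least 50, which favours such counts. The SD of Zfp949 was more than that of Zfp941, although its mean was lower.

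Strain accounted for a share of the variance in most members. With the moderated F test of limma on log2(FPKM + 1), 19 of 24 members (79.2%) differed among strains after Benjamini-Hochberg adjustment over all genes, where 75.4% of all genes did. The strain share of variance, an intraclass correlation that approaches 1 when nearly all of the spread lies between strains and 0 when none does, had a median of 0.286 over the members, 0.222 over all genes and 0.154 over the 230 other Zfp genes, of which 149 (64.8%) passed. The members ranged from -0.07 for Zfp946 to 0.94 for Zfp949, as the plot of strain share by member shows.

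**Figure D1:**
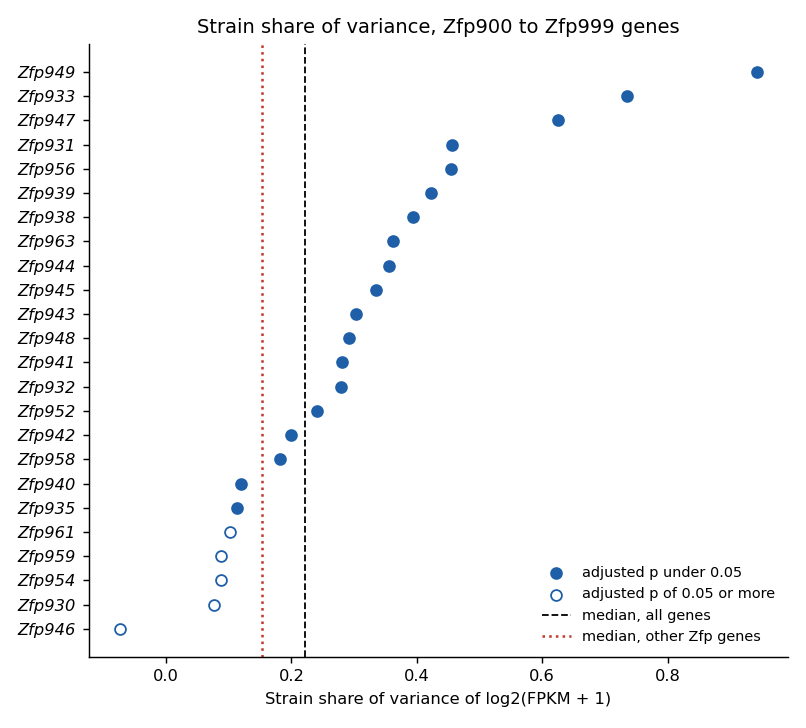
Strain share of variance of log2(FPKM + 1) (x axis, no unit) for each of the 24 members (y axis), with filled points for members past the adjusted threshold and lines at the medians of all genes and of the other Zfp genes. Zfp949 (0.94), Zfp933 (0.73) and Zfp947 (0.63) stand to the right of the rest, and the 5 open points are Zfp961, Zfp959, Zfp954, Zfp930 and Zfp946.

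Zfp949 had the largest share (adjusted p = 1.19e-91, limma) and ranked 66 of 14079 genes. It was followed by Zfp933 (0.73, adjusted p = 2.87e-35), Zfp947 (0.63, 2.91e-23), Zfp931 (0.46, 2.29e-12), Zfp956 (0.45, 4.74e-12) and Zfp939 (0.42, 1.71e-10). Zfp938 (0.39), Zfp963 (0.36), Zfp944 (0.36) and Zfp945 (0.33) completed the 10 largest, with adjusted p of at most 2.7e-07. The 5 members that missed the threshold were Zfp961 (0.10, adjusted p = 0.0633), Zfp959 (0.09, 0.0896), Zfp954 (0.09, 0.098), Zfp930 (0.08, 0.115) and Zfp946 (-0.07, 0.869). All 5 members at loci with 2 names passed, as did 14 of the 19 at loci with 1 name. At loci with 2 names the call is that of the locus. The Zfp939 transcript held 13.3% of its locus's FPKM and did not pass by itself (share 0.04, adjusted p = 0.327, limma). Those of Zfp956 held 45.3% and did not pass either (adjusted p = 0.149 and 0.386, limma). The transcripts of Zfp947 and Zfp963 and the known transcript of Zfp952 passed, and the unannotated ones of Zfp952 did not.

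The strain means of Zfp949 fell into 2 ranges with nothing between them. They ran from 6.64 FPKM in BXA-8/PgnJ to 21.2 in BXD85, and no strain had a mean between 9.77 and 16.2 FPKM. Above this gap lay 31 strains with 90 mice, of which the lowest was at 14.0 FPKM, and below it 68 strains, whose highest mouse was at 11.2. The 31 strains comprised 22 of 43 BXD strains and 9 inbred strains, namely DBA/2J, PL/J, RIIIS/J, NZW/LacJ, MA/MyJ, SWR/J, SJL/J, CBA/J and LG/J. None of the AXB/BXA, BXH or CXB strains was among them, and their means reached 9.68, 8.76 and 8.38 FPKM.

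The parents of the recombinant sets followed the same order. Zfp949 was at 6.95, 7.40 and 7.80 FPKM in the C57BL/6J mice and at 18.3, 18.6 and 20.5 FPKM in the DBA/2J mice, with no overlap. DBA/2J was 2.59-fold higher (log2 difference of log2(FPKM + 1) 1.26 ± 0.109 SE, n = 3 per strain, adjusted p = 3.98e-21, limma). In A/J the 3 mice lay between 7.74 and 9.51 FPKM, in BALB/cJ between 7.61 and 7.76, and in C3H/HeJ between 7.39 and 8.94. These values overlap those of C57BL/6J, and the differences did not pass the threshold (adjusted p = 0.485, 0.876 and 0.59). The BXD strains had a gap from 8.88 to 16.35 FPKM, with 21 below and 22 above.

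**Figure D2:**
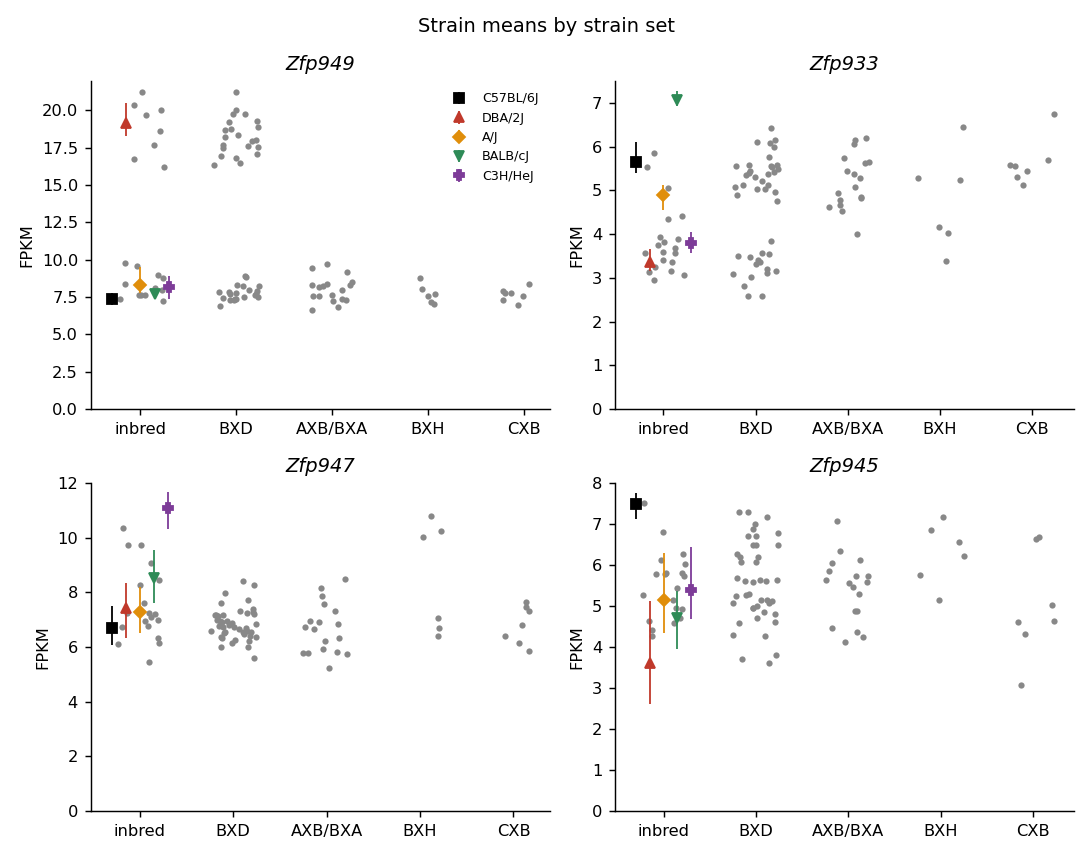
Strain mean FPKM (y axis) of Zfp949, Zfp933, Zfp947 and Zfp945 by strain set (x axis), with grey points for strains, and coloured symbols for the 5 parental or related inbred strains whose bars span their lowest to highest mouse. Zfp949 separates into 2 bands in the inbred and BXD sets only, and Zfp947 reaches above 9.7 FPKM in inbred and BXH strains.

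Zfp933 was lower in DBA/2J and in C3H/HeJ than in C57BL/6J. Its values were 5.40, 5.45 and 6.09 FPKM in C57BL/6J, 3.16, 3.27 and 3.67 in DBA/2J, and 3.56, 3.79 and 4.04 in C3H/HeJ, so neither strain overlapped C57BL/6J. The log2 differences were -0.61 ± 0.137 for DBA/2J (adjusted p = 6.26e-04) and -0.47 ± 0.137 for C3H/HeJ (adjusted p = 0.015), both from limma with SE and n = 3. In BALB/cJ all 3 mice were higher, from 6.92 to 7.26 FPKM, but this difference did not pass (log2 0.28, adjusted p = 0.256). Among the 43 BXD strains the widest gap ran from 3.83 to 4.75 FPKM, with 16 strains below and 27 above. The lowest strain over all 99 was BXD-12/TyJ at 2.58 FPKM, which rests on 1 mouse, since without mouse OB-547 that strain's mean was 3.61.

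Zfp947 was highest in C3H/HeJ. The 3 C3H/HeJ mice had 10.3, 11.3 and 11.7 FPKM and the 3 C57BL/6J mice 6.09, 6.54 and 7.49, with no overlap (log2 difference 0.65 ± 0.106 SE, adjusted p = 3.59e-07, limma). In the 6 BXH strains, whose parents these are, 3 strains lay at or below 7.05 FPKM and 3 at or above 10.03. Over all strains, 7 had means of at least 9.72 FPKM and the other 92 were at or below 9.09. The locus carries the name Gm4944 too, and only 21.9% of its FPKM came from the deposited Zfp947 transcript. In the deposited assembly this locus and that of Zfp943 do not overlap and lie 72.1 kb apart. By annotated gene spans, introns included, it overlaps Zfp943 over 4560 bases on the opposite strand. On the same strand it overlaps Zfp994 over 25572 bases. The libraries did not keep strand, so strand cannot tell apart reads of a stretch common to both strands. The part of such reads in the level of Zfp947 was not tested.

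Zfp945, which encodes the most fingers among the members, was lower in DBA/2J. The values were 7.14, 7.60 and 7.76 FPKM in C57BL/6J and 2.61, 3.12 and 5.14 in DBA/2J (log2 difference -0.92 ± 0.200 SE, n = 3, adjusted p = 3.46e-04, limma). C57BL/6J had the second highest of 99 strain means and DBA/2J the third lowest. The BXD strains did not separate into 2 bands, with 16 at or below the highest DBA/2J mouse, 3 at or above the lowest C57BL/6J mouse and 24 between.

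Over the 4 strains set against C57BL/6J, few members passed. In DBA/2J they were 3 of 24 (12.5%), where 6.88% of all genes passed, and they were the genes Zfp949, Zfp933 and Zfp945 described above. In C3H/HeJ 3 of 24 passed, where 7.59% of all genes did, with Zfp938 as the third. It was at 7.59, 7.63 and 7.81 FPKM in C57BL/6J and at 9.75, 9.97 and 10.1 in C3H/HeJ (log2 0.33 ± 0.096 SE, adjusted p = 0.0135). In A/J only Zfp939 passed, where 8.01% of all genes did. Its locus was at 5.13, 5.37 and 5.69 FPKM in C57BL/6J against 3.64, 3.94 and 4.12 in A/J (log2 -0.38 ± 0.106 SE, adjusted p = 0.00777). That level also holds Zfp619, and only 13.3% of it came from the Zfp939 transcript over all mice. In BALB/cJ none passed in limma, where 6.79% of all genes did, although 7 members had an unadjusted p under 0.05, and 1 passed when only the 2 strains compared entered the fit. The 4 comparisons share the C57BL/6J mice.

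The median log2 difference over the 24 members was -0.13 in DBA/2J, -0.08 in A/J, 0.07 in BALB/cJ and 0.09 in C3H/HeJ, and over all genes it was between -0.02 and 0.01. The calls of Zfp938 and Zfp933 in C3H/HeJ and of Zfp939 in A/J were each lost when 1 of certain mice was left out. Without C3H/HeJ replicate 1 the adjusted p of Zfp938 was 0.0533, without C3H/HeJ replicate 3 that of Zfp933 was 0.074, and without A/J replicate 2 that of Zfp939 was 0.061. The same held for C57BL/6J mice, where the adjusted p of Zfp938 was 0.0502 without replicate 1, and without replicate 2 that of Zfp933 was 0.0869 and that of Zfp939 was 0.052. The 3 calls in DBA/2J held without any single mouse of either strain.

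Summed levels of markers of neighbouring tissues varied between these strains. The summed FPKM of 6 of 7 anterior pituitary markers found in the table was 3.20 to 5.59 in C57BL/6J, 5.43 to 14.3 in DBA/2J, 64.1 to 178 in A/J and 44.9 to 320 in C3H/HeJ. For 5 of 6 choroid plexus markers it reached 1421.96 in 1 C57BL/6J mouse, 1260 in 1 DBA/2J mouse and 834 in 1 C3H/HeJ mouse, against at most 33.9 in A/J. For 4 of 4 thalamus markers it was 168 to 243 in C3H/HeJ and 86.7 to 161 in C57BL/6J, with no overlap, and between 117 and 203 in DBA/2J, A/J and BALB/cJ. The part of these tissues in the differences above was not tested. Markers of the hypothalamus were found for 6 of 6 genes, with a sum of 826 to 9173 FPKM over all mice. Among them Pomc ran from 1.45 to 6851 FPKM (median 24.2). The loci of Agrp (with Atp6v0d1) and Oxt (with Mrps26 and Ptpra) hold other genes too. The sum is therefore no measure of hypothalamus alone. In whole tissue, fewer cells of a type and less RNA per cell cannot be told apart.

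No member had a strain near zero at the gene level. Under the rule that every mouse of a strain be below 0.1 FPKM this held for 0 of 24 members, and for 464 of 14079 genes (3.3%). It still held for none when the limit was raised to 0.5 FPKM, where 1181 genes had such a strain. The lowest strain mean of any member was that of Zfp959 in LG/J, 0.604 FPKM, with its 3 mice between 0.249 and 1.09. Zfp931 had the largest ratio between its highest and lowest strain, 3.85, from 2.42 FPKM in RIIIS/J to 9.32 in BXHA1. In 12 of 24 members the highest strain mean was at least 2 times the lowest, and the share over all genes was not computed. Zfp961, Zfp959 and Zfp930 were among them although they did not pass the strain test. Such ratios can rest on 1 mouse. The lowest mean of Zfp948, 2.67 FPKM in BXD-12/TyJ, was 3.73 without mouse OB-547. AXB-12/PgnJ, with 1 mouse, was the lowest strain of Zfp947 and the highest of Zfp940 and Zfp958.

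**Figure D3:**
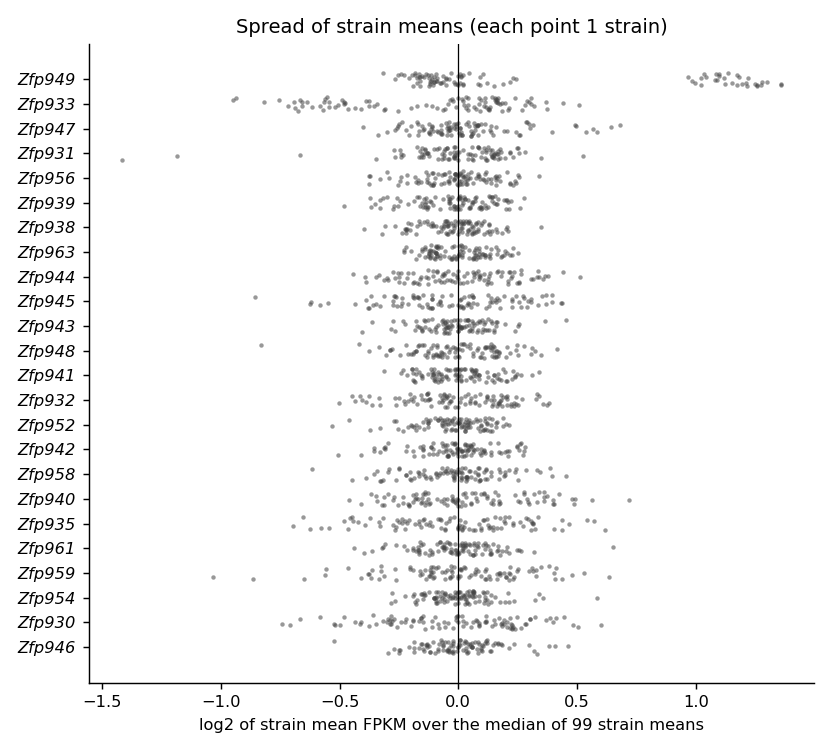
Strain means of each member (y axis, ordered by strain share) as log2 of the strain mean FPKM over the median of the 99 strain means (x axis), each point 1 strain. Zfp949 shows a separate group of 31 strains to the right, and Zfp931 has 3 strains far to the left (RIIIS/J, KK/HlJ and NON/LtJ).

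Some members differed among strains in 1 transcript and not in another. Of the 54 member transcripts, 42 matched a known transcript and 12 were unannotated isoforms of known genes. Strain differences passed the test for 27 of 54 (50%), where 46.8% of all transcripts passed, with 24 of the 42 known and 3 of the 12 unannotated among them. Of the 48 transcripts at loci with several, the share in the summed transcript FPKM differed among strains for 22 (45.8%), where 37.5% of all such shares did. At the transcript level 28 of 54 (51.9%) had at least 1 strain with every mouse below 0.1 FPKM, and 56.6% of all transcripts did.

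In Zfp949, the separation was seen in 1 of 3 deposited transcripts. Its 5-exon transcript (TCONS_00356949, chr9:88548183-88571086 in mm10) had strain means of at most 3.07 FPKM in 68 strains and of at least 10.1 in 31, with a strain share of 0.83. These were the same 31 strains that lay above the gap in the gene's level. In the parents it was 0.00, 0.37 and 3.01 FPKM in C57BL/6J and 11.7, 13.9 and 14.9 in DBA/2J. The 6-exon transcript (TCONS_00356921, chr9:88548020-88571078) had 1.07, 3.43 and 4.56 FPKM in C57BL/6J and 2.25, 2.95 and 4.50 in DBA/2J, which overlap. Its level did not pass the strain test (share 0.05, adjusted p = 0.282). The 3-exon transcript (TCONS_00356948) did pass (share 0.18, adjusted p = 0.00649), with strain means from 0.213 FPKM in AXB-18/PgnJ to 3.96 in LG/J, and overlapped between the parents, at 0.587, 1.46 and 1.60 FPKM in C57BL/6J and 0.00, 1.397 and 2.13 in DBA/2J. The 5-exon transcript made up 75.4% of the gene's transcript FPKM in DBA/2J and 19.6% in C57BL/6J. Levels of transcripts that share exons are estimated jointly from short reads, so they are less certain than the gene's level.

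**Figure D4:**
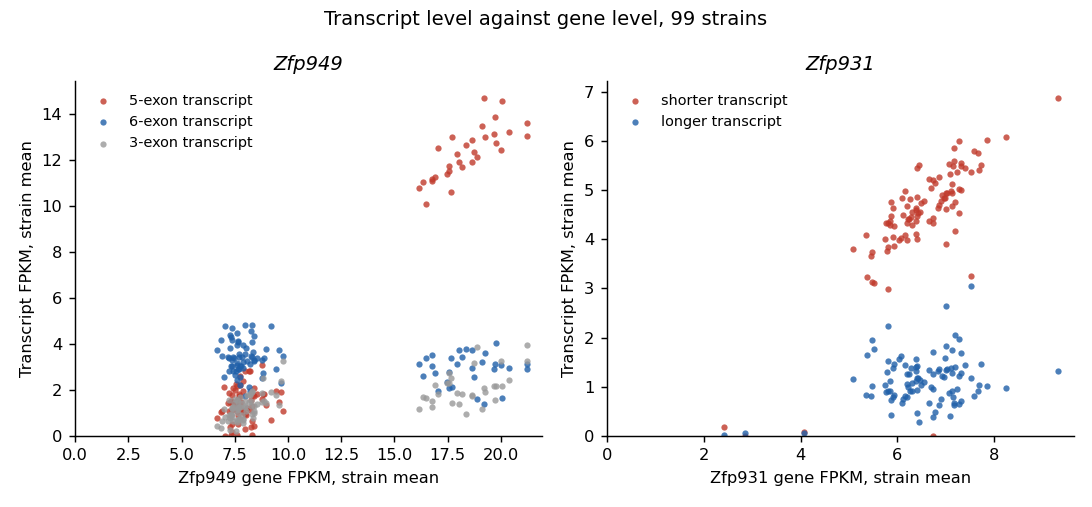
Strain mean FPKM of single transcripts (y axis) against the strain mean FPKM of the gene (x axis) for Zfp949 (left) and Zfp931 (right), each point 1 of 99 strains. In Zfp949 the 5-exon transcript lies at or above 10.1 FPKM in the 31 strains with high gene levels, while the 6-exon and 3-exon transcripts stay below 5 FPKM.

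In Zfp931 the shorter of 2 known transcripts (TCONS_00210473, chr2:178068490-178078476) was at or near 0 in 4 inbred strains. Its mean was 0 FPKM in CE/J, at most 0.174 in KK/HlJ, NON/LtJ and RIIIS/J, and at least 2.98 in the other 95 strains (strain share 0.76). The longer transcript (TCONS_00210470) was low in the same strains, at 0.383 FPKM in CE/J and at most 0.063 in the other 3. The gene's level was 2.42 FPKM in RIIIS/J, 2.85 in KK/HlJ and 4.08 in NON/LtJ, the 3 lowest of all strains, but 6.74 in CE/J, above the median of 6.47. Over all mice the 2 deposited transcripts made up 86.5% of the gene's FPKM, so that its value also holds transcripts that are not analysed here. Within the BXD strains alone Zfp931 did not pass the strain test (share -0.07, adjusted p = 0.789).

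Zfp945 had a 707-base transcript (TCONS_00151236) that was listed at 0 in all 3 DBA/2J mice. It was at 3.42, 3.61 and 3.85 FPKM in C57BL/6J, where it made up 49.1% of the gene's transcript FPKM. Over all strains its share of the gene differed (strain share of that share 0.65, adjusted p = 3.54e-25). In Zfp933 the 2 known transcripts differ mainly at the gene's 3′ end. The 4238-base transcript (TCONS_00252782) made up 87.7% of the gene's transcript FPKM in C57BL/6J and 100% in BALB/cJ, but 43.8% in DBA/2J and 36.7% in C3H/HeJ. The strain share of this proportion was 0.78 (adjusted p = 1.03e-41), the largest among the members.

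The members were spread over 10 chromosomes, with 9 on chromosome 17. A run of 7 members with gaps of at most 1 Mb lay there (chr17:21567046-22867134 in mm10), in the order Zfp948, Zfp942, Zfp943, Zfp947, Zfp944, Zfp946 and Zfp945. A 2nd run, Zfp930 and Zfp963 on chromosome 8, was 513 kb apart. In the chromosome 17 run 6 of 7 members differed among strains, where 75.4% of all genes did, and Zfp946 was the exception. Their median strain share was 0.303, against 0.222 over all genes. Mean levels there ranged from 3.24 ± 0.622 FPKM for Zfp944 to 7.14 ± 1.26 for Zfp947. Between them lay Zfp948 (4.77, strain share 0.29), Zfp945 (5.49, 0.33), Zfp942 (5.71, 0.20), Zfp943 (6.15, 0.30) and Zfp946 (6.19). The deposited transcripts made up 12.1% of the FPKM of Zfp946 and 30.7% of that of Zfp948. Most of these 2 levels thus came from transcripts that are not analysed here.

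Strain means within the runs were compared pairwise, in 22 pairs over 99 strains. In 12 pairs Pearson's r and Spearman's rho were both past the threshold (permutation tests with 100000 resamples, 2-sided, Benjamini-Hochberg over the 22 pairs), and r was positive in all 12. Within the 43 BXD strains alone 12 pairs passed too, but 1 of them was negative (Zfp947 with Zfp945, r = -0.35, rho = -0.41, adjusted permutation p = 0.0386 and 0.0179). Leaving out the 2 strains farthest from the median gave 13 pairs, with 1 negative (Zfp944 with Zfp946, r = -0.22, rho = -0.27). Over all 99 strains the highest was Zfp943 with Zfp944, at r = 0.56 (permutation p adjusted 5.5e-05) and rho = 0.52 (4.4e-05), and it was 0.54 within the BXD, 0.52 within the AXB/BXA and 0.47 within the inbred strains. Zfp942 with Zfp944 gave r = 0.54 and rho = 0.58, and r was 0.53, 0.47 and 0.50 within those sets. Zfp948 with Zfp945, at opposite ends of the run, gave r = 0.54 and rho = 0.49, and 0.73, 0.30 and 0.57 within sets. The adjusted permutation p of r and rho in these last 2 pairs were the same as in the first. The smallest p that these permutations can give is 1e-05. They treat strain means as independent, although strains of a set share parents, so these p may be too small. Without the 2 strains farthest from the median, r of these 3 pairs was 0.51, 0.55 and 0.49. Without mouse OB-547 of BXD-12/TyJ it was 0.55, 0.54 and 0.47 over all strains. In that mouse Zfp948 and Zfp945 were both below its 2 strain mates, at 0.562 and 0.904 FPKM. The correlations within the BXD strains include this mouse. For deviations of mice from their strain mean, r of the same 3 pairs was 0.19, 0.30 and 0.34. Without mouse OB-547 it was 0.20, 0.30 and 0.24. Over the 22 pairs it ran from 0.02 (Zfp948 with Zfp947) to 0.57 (Zfp946 with Zfp945). The latter pair missed the threshold for rho over strain means. Means of 1 to 3 mice hold such deviations too, and their part in the correlations of strain means was not tested.

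**Figure D5:**
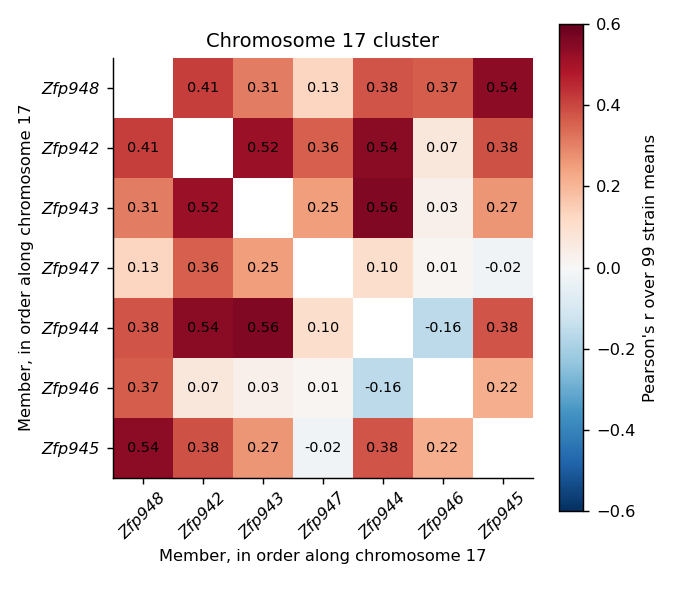
Pearson's r over 99 strain means of log2(FPKM + 1) for each pair of the 7 members on chromosome 17, in their order along the chromosome on both axes. Values among Zfp942, Zfp943 and Zfp944 are 0.52 to 0.56, and those of Zfp946 and Zfp947 are mostly lower.

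Zfp946 and Zfp947 were in fewer of these pairs. Over all strains and mice Zfp946 passed both measures with no other member, and its r ranged from -0.16 with Zfp944 to 0.37 with Zfp948. The latter rests on mouse OB-547, since r of Zfp948 with Zfp946 was 0.14 without it (adjusted permutation p = 0.233). Without this mouse Zfp946 passed with Zfp944, at r = -0.26 and rho = -0.25. Zfp947 passed with Zfp942 only (r = 0.36, rho = 0.30, adjusted permutation p = 0.0053 for rho). No pair passed both measures within the 18 AXB/BXA strains alone, and 3 did within the 25 inbred strains. The BXH and CXB sets, with 6 and 7 strains, were too small to be taken alone. As a description, the median r was 0.31 over the 21 pairs on the chromosome 17 run and 0.05 over the 228 pairs of members on different chromosomes. Zfp942 shares 4.55% of its 50-base stretches with Zfp944 and Zfp944 8.67% with Zfp942. The part of shared reads in their correlation was not tested.

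Zfp942 and Zfp943 start 96 bases apart and point away from each other, so that their promoter windows overlap. Their strain means had r = 0.52 and rho = 0.49 (adjusted permutation p = 5.5e-05 and 4.4e-05), with r of 0.42, 0.28 and 0.78 within the BXD, AXB/BXA and inbred strains and 0.55 without the 2 strains farthest from the median. The part of the sequence common to both RefSeq promoters (GRCm38.p6, chr17:21962415-21962608, plus strand) is printed because these 2 genes are the closest members, with a CCGCCC match in capitals. It holds 16 CG pairs in 194 bases.
Zfp942 and Zfp943 promoter: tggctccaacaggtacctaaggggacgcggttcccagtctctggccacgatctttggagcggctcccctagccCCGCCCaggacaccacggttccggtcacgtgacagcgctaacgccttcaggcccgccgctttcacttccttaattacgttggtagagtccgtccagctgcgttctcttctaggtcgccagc

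Promoters of 23 of 24 members were found in RefSeq (250 bases before to 50 after the start), all but that of Zfp930. They held a median of 10 CG pairs, and all 32851 promoters a median of 7. On either strand, TATAAA occurred in 0 of 23, against 13.6% of all promoters. CCAAT occurred in 15 of 23 (37.4% of all) and GGGCGG in 10 of 23 (35.7%). These are matches of letters and not tested sites.

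RNA of the cofactors that KRAB zinc finger proteins work with was found for 13 of 15 genes listed, with a median mean level of 14.9 FPKM, and Atf7ip2 and Uhrf1 were not analysed here. Of these 13, 11 (84.6%) differed among strains, where 75.4% of all genes did, and their median strain share of 0.210 was near the 0.222 of all genes. Chd3, a chromatin remodeller, had the highest mean of the list (107.9 ± 10.9 FPKM), and Trim28 had 59.8 ± 17.1. The spread of Trim28 includes a mouse at 308.6 FPKM, far above its median of 57.8. Hdac1, a histone deacetylase, had the largest strain share (0.59), while Trim28 (0.07, adjusted p = 0.138) did not pass. Cbx1, Cbx3 and Cbx5, which encode the HP1 proteins, all passed, with shares of 0.21, 0.31 and 0.20.

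One library stood apart. The summed gene FPKM ran from 322047 to 463433 in all mice except OB-547 of BXD-12/TyJ, which had 792801. In this mouse Zfp933 (0.506 FPKM), Zfp946 (0.338) and Zfp948 (0.562) were at the lowest value of all 282 mice, where the other 2 mice of its strain had 3.56 to 3.66, 5.89 to 6.64 and 3.71 to 3.74 FPKM. Another 10 members were above both of those mice, with Zfp954 at 11.4 FPKM against 4.44 and 4.54. Without this mouse 20 of 24 members differed among strains, where 81.3% of all genes did, and Zfp954 joined (adjusted p = 0.0453). The AXB-12/PgnJ strain, with 1 mouse, had the highest strain mean of 4 members and the lowest of 2.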

How the data were processed

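Hypothalamic mRNA of 282 mice was sequenced as 1 unstranded library per mouse. The deposited values are FPKM that the authors made with STAR 2.3.1, Cufflinks 2.2.0 and Cuffnorm 2.2.1 on mm10, with GENCODE M2 merged into assemblies of each strain. Reads were aligned to the C57BL/6J reference. Every gene in the table exceeds 0 FPKM in at least 100 mice and 1 FPKM in at least 50. Exon coordinates came from the deposited assembly. FPKM hold no read counts, so the depth behind a value is unknown here and precision is given as spread between mice.

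Members were genes with names from Zfp900 to Zfp999, and the members and lists were chosen with earlier results of these data known. Labels gave each mouse 1 strain except OB-627, whose labels name 2, which was left out of strain tests. Mice of a strain are separate animals. Each feature was tested on log2(FPKM + 1), pseudocount 1, over 281 mice, with the moderated variance of limma 3.58.1 in R 4.3.3 (F test over strains, contrasts with C57BL/6J) and Benjamini-Hochberg adjustment over all features of that kind at 0.05. In simulated data for the strain test on 14079 genes, 200 with a strain share of 0.5, 100% of these were recovered and 6.1% of calls were false. The simulated noise was normal and independent between genes, and 75.4% of genes passed in the real data. These rates therefore check the procedure and need not hold for the real data. Transcript shares needed values in at least 200 mice. Sequences were read from GENCODE M21 transcripts and RefSeq promoters. Remaining steps ran in scipy 1.17.1 and pandas 2.3.3 (Python 3.11.15).

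Named with values were the 10 members with the largest strain share, the 3 with the smallest, those in a cluster of at least 3, the 5 with the highest mean, and those past the threshold in DBA/2J. Other members and transcripts named were chosen after their values were seen. Alternatives were other pseudocounts, a minimum mean of 1 FPKM, quantile-normalised values, a Kruskal-Wallis test (chi-square approximation), subsets of mice and strains, and other thresholds for near-zero strains and gaps.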

Additional observations from a re-analysis of the deposited data

How the results depend on the processing

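With the strains of all sets together, 15 to 20 of 24 members differed among strains under every alternative, with 15 to 19 when replicate 1, 2 or 3 of each strain was left out. Without replicate 1 the 2 strains with 1 mouse dropped out. The share of all genes that passed moved as well, from 45.6% without replicate 2 to 81.3% without mouse OB-547. Within sets it was 12 members in BXD strains alone (41.4% of all genes), 12 in AXB/BXA strains alone (33.5%) and 16 in inbred strains alone (61.9%), and the cause was not tested. The call of 13 members was the same under every alternative fitted to all sets together, and that of 8 members when the sets taken alone were included. The median strain share, 0.286, was 0.182 in BXD strains alone and 0.357 in inbred strains alone, and 0.231 to 0.332 without 1 replicate number. Of the 54 transcripts 14 to 23 passed without 1 replicate number, against 27 with all, and of the transcript shares 16 to 18 passed against 22. DBA/2J kept a count of 3 members under each alternative and C3H/HeJ had 2 or 3. A/J had 2 with quantile normalization, without mouse OB-547 or with only the 2 strains compared, and 0 to 1 without 1 mouse. BALB/cJ had 1 with quantile normalization, without mouse OB-547 or with only the 2 strains compared, and 0 to 1 without 1 mouse. With gaps of at most 0.5 Mb only 1 cluster was left, because the chromosome 8 members lie farther apart. The 12 correlated pairs became 0 in AXB/BXA strains alone and 3 in inbred strains alone. Without OB-547, an alternative chosen after seeing the data, 13 pairs passed, 1 of them negative (Zfp944 with Zfp946, r = -0.26). Except for the number of clusters, the causes of these shifts were not tested. Of 389 values for single members, 345 kept their call, 38 lost it and 6 gained it, and none changed sign in a contrast. Replicate numbers follow accession order, so no paired analysis was possible because they pair no mice across strains. FPKM give no counts, so the depth needed for a low level such as that of Zfp959 cannot be stated.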
